A study of Homo sapiens with 20 samples.

Results

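STAG2 and STAG1 are alternative subunits of cohesin, the ring-shaped complex that holds DNA loops, and at most genomic sites both are found together. The 161 regions described here were the exception in M14 human melanoma cells. Each held a STAG2 peak in every one of the 4 STAG2 ChIP-seq peak lists, 2 from WT and 2 from STAG2-KD cells, and overlapped no peak of any of the 4 STAG1 lists. They were found by merging the 4 STAG2 lists into 130122 union sites on chromosomes 1 to 22 and X, of which 50010 had a peak in all 4 lists and are called stable. The 161 sites were thus 0.322% of the stable sites. They were chosen by the STAG2 and STAG1 peak calls, so their STAG2 values and the lack of STAG1 are descriptions with no test, whereas the CTCF and SMC1A lists and the sequence were not used in the choice.

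All cells carried a doxycycline-inducible shRNA against STAG2. WT cells were grown without doxycycline and STAG2-KD cells with it, for 5 days per the labels of replicate 1. Each of the 4 antibodies, against STAG2, STAG1, CTCF and SMC1A, was used in 2 libraries per condition, 1 in each of 2 replicate sets that differ in chromatin extraction, size selection and peak threshold. Every library comes from 1 cell line with 1 shRNA construct, and nothing in the labels says whether the replicates were separate cultures, so that the spread between them may be technical.

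As background, cohesin consists of the SMC1A and SMC3 arms, RAD21 and either STAG1 or STAG2. CTCF, a zinc finger protein bound to its own motif, halts cohesin at loop anchors, and sites where cohesin meets CTCF usually hold both STAG proteins. STAG2 is the variant that has more often been found at promoters and enhancers without CTCF. SMC1A therefore reports cohesin as a whole, and CTCF tells anchor sites from others.

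Of the 10 strongest of the 161 sites 9 lay at gene starts, and several shared a short sequence. The reference sequence of 5 of the 16 strongest is shown because they carry motifs counted below. Each is up to 151 bases around the summit of the strongest STAG2 peak, on the plus strand of hg19, read from the GRCh37 genome and shortened where an annotated UTR began. Capitals mark TCGCGAG or TACAATTCC (ZNF143) on either strand.
CDK12, chr17:37617537-37617687: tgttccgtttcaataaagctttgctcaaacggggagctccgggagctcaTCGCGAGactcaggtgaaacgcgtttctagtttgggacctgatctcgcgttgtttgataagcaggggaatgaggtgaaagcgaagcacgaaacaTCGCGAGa
ARF3, chr12:49351271-49351393: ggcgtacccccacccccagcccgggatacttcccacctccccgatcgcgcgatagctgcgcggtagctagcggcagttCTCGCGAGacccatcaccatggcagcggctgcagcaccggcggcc
ZNF317, chr19:9250961-9251072: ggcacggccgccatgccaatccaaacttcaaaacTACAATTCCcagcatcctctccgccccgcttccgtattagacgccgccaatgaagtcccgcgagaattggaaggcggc
MMS22L, chr6:97731093-97731227: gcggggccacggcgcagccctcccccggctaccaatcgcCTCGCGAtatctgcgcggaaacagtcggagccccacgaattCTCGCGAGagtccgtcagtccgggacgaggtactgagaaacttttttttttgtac
CDC5L, chr6:44355203-44355353: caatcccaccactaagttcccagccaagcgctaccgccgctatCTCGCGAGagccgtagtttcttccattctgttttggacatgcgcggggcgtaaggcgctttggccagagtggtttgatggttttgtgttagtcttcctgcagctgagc
TCGCGAG, part of a CG-rich palindrome that the promoter-binding factor BANP recognises, was present at CDK12, ARF3, MMS22L and CDC5L. It was added to the search after sequences of the strongest sites had been read. ZNF317 held the ZNF143 motif.

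CTCF was called at a minority of the 161 sites in each list, and in at least 1 list at 73 (45.3%). A CTCF peak was present at 36 sites (22.4%) in WT and 35 (21.7%) in STAG2-KD of replicate 1, and at 64 (39.8%) and 63 (39.1%) in replicate 2. At the 44638 stable sites with STAG1 in all 4 lists the shares were 94.4%, 94.5%, 96.8% and 96.5% in the same order. The mean share was 30.7% ± 10.0 (SD, n = 4 libraries) against 95.5% ± 1.28, a difference of -64.8 percentage points with the same sign in 4 of 4 libraries (two-sided exact sign-flip permutation test over libraries, p = 0.12, the smallest that 4 libraries allow, adjusted p = 0.172 over 44 tests). No comparison over 4 libraries could therefore pass a threshold of 0.05. Within a replicate WT and STAG2-KD differed by 1 site, whereas the replicates differed by 28. The order also held among promoter sites alone, with 36.5% ± 11.6 (SD, n = 4) at the 102 of them without STAG1 and 94.3% ± 2.58 at the promoters with STAG1 in all lists (lower in 4 of 4 libraries, exact sign-flip permutation p = 0.12, adjusted p = 0.172). It also held in the weakest of 5 equal strata of STAG2 strength, with 31.5% against 82.9%. No list called CTCF at 88 of the 161 sites (54.7%), against 5.58% of all stable sites and 27.8% of those with STAG1 in 1 to 3 lists. All 4 lists called it at 28 sites (17.4%), against 88% and 43.1%.

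SMC1A was found at most of the sites, although less often than elsewhere. A peak was present at 80 sites (49.7%) in WT and 90 (55.9%) in STAG2-KD of replicate 1, and at 131 (81.4%) and 138 (85.7%) in replicate 2. The stable sites with STAG1 in all lists had 92.0%, 94.1%, 98.5% and 98.9%. The mean share was 68.2% ± 18.0 (SD, n = 4) against 95.9% ± 3.41, or -27.7 percentage points, lower in 4 of 4 libraries (exact sign-flip permutation test, p = 0.12, adjusted p = 0.172). At least 1 list called SMC1A at 150 of the 161 sites, against 99.3% of all stable sites, and all 4 lists at 57, against 87.5%. Among promoter sites SMC1A was at 73.5% ± 17.3 (SD, n = 4) against 98.2% ± 1.56, and in the weakest stratum at 68.1% against 85.4%. The plot of shares by library shows that both antibodies kept this order in every library.

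**Figure D1:**
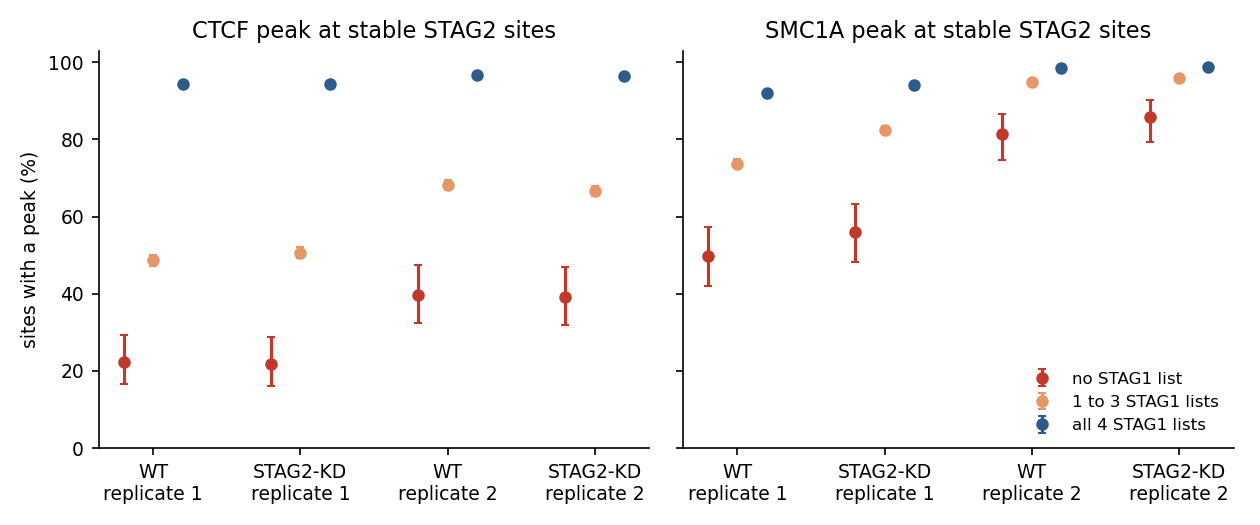
Share of stable STAG2 sites with a CTCF peak (left) or an SMC1A peak (right) in each library, in percent, for the 161 sites with no STAG1 list, the 5211 with 1 to 3 and the 44638 with all 4. Bars are 95% Wilson intervals, which cover counting error only. The 161 sites are lowest in all 8 libraries.

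The 5211 stable sites with STAG1 in 1 to 3 lists lay between these sets. Their mean CTCF share was 58.5% ± 10.3 (SD, n = 4) and their mean SMC1A share 86.7% ± 10.6, so that the 161 sites were lower by 27.8 and 18.5 percentage points (each lower in 4 of 4 libraries, exact sign-flip permutation p = 0.12). A different contrast was given by 1424 sites that also lacked STAG1 in every list but whose STAG2 peak was called in WT in both replicates and was missing from both knockdown lists. Against these lost sites SMC1A was 38.1 percentage points higher at the 161 stable sites, in 4 of 4 libraries (exact sign-flip permutation p = 0.12). The lost sites were chosen by a missing STAG2 peak in STAG2-KD, so the STAG2-KD libraries are no independent comparison. In WT SMC1A was at 21.0% and 58.1% of the lost sites in replicates 1 and 2, against 49.7% and 81.4% of the 161. In STAG2-KD it was at 9.48% and 31.6%, against 55.9% and 85.7%. CTCF was 8.73 points higher over all sites, but 5.31 points among promoter sites, with 1 of 4 libraries the other way, and -0.01 points among sites outside promoters, with 3 of 4 libraries lower. The median CTCF percentile at the sites with a peak was 12.3 lower than at the lost sites, in 4 of 4 libraries (exact sign-flip permutation p = 0.12). Among promoter sites it was 12.1 lower, in 4 of 4 libraries. Outside promoters it was only 3.28 lower, in 3 of 4 libraries (exact sign-flip permutation p = 0.25).

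The sites were also sorted by their CTCF and SMC1A calls together, and the classes given here do not cover all 161. SMC1A without any CTCF was the most frequent state, with 82 of the 161 sites, 46 of them at promoters, against 5.55% of all stable sites. Only 18 sites had both proteins in all 8 lists, against 78.9% of all stable sites. Of the 82 sites with SMC1A and no CTCF, 23 had SMC1A in all 4 lists. These were 14.3% of the 161, against 3.99% of all stable sites. Among the stable sites with STAG1 in some but not all lists, SMC1A in all 4 lists without CTCF was at 17.7%. That state was therefore not particular to the 161. No CTCF in any list was at 27.8% of those sites, against 54.7% of the 161. Neither protein was called in any list at 6 of the 161, against 0.034% of all stable sites, and CTCF in all 4 lists without SMC1A at 1, against 0.396%.

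**Figure D2:**
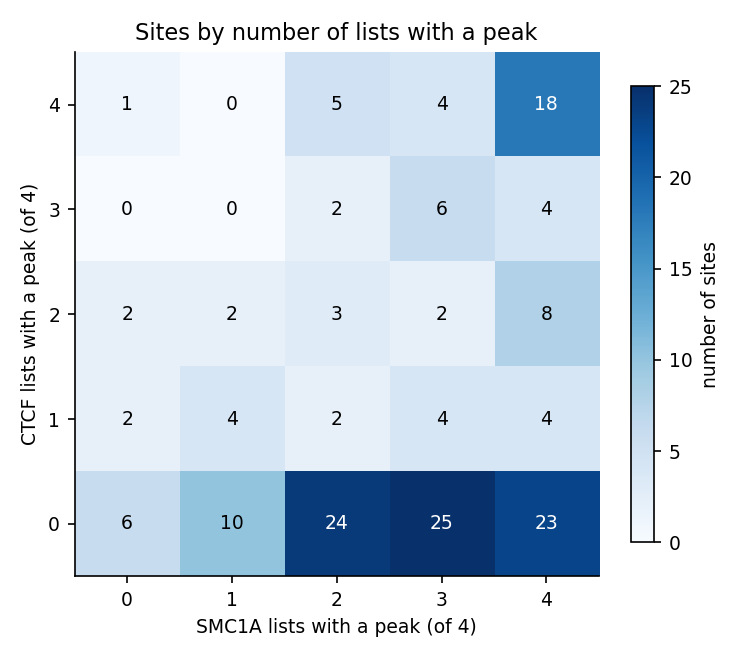
Number of the 161 sites by how many of the 4 CTCF lists (y axis) and of the 4 SMC1A lists (x axis) held a peak. The bottom row, with no CTCF list, holds 88 sites, and the top right cell, with all 8 lists, holds 18.

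Where a CTCF peak was present at the 161 sites it was weak. Peak strength was ranked within each list as a percentile of −log10 p, so that 0 is the weakest and 100 the strongest peak of that list. The median CTCF percentile at the sites with a peak was 26.6 ± 5.07 (SD, n = 4 libraries), against 78.4 ± 3.91 at stable sites with STAG1 in all lists. That of SMC1A was 41.1 ± 12.51 against 80.4 ± 5.79. Both were lower in 4 of 4 libraries (exact sign-flip permutation p = 0.12 each, adjusted p = 0.172).

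STAG2 was itself weak at most of the sites. The median fold enrichment, the ratio of pileup to expected background at the summit, was 4.65 and 4.10 in the WT lists of replicates 1 and 2 and 4.79 and 4.34 in the STAG2-KD lists. The stable sites with STAG1 in all lists had 18.2, 14.2, 12.7 and 12.7 in the same order. Of the 161 sites 142 fell in the weakest of 5 equal strata of mean STAG2 percentile over all stable sites, and 1 in the strongest. A weak STAG1 peak below a threshold cannot be told from its absence, since only called peaks were available. The nearest STAG1 peak of any list lay a median of 9.28 kb from the edge of a site, and 10 sites had one within 500 bp.

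The rule sits on a threshold, and the sites nearest to it were close. ZMYM3 on chromosome X (70473680 to 70474695) was 122 bp from a STAG1 peak, LRRC7 200 bp, SLC39A9 314 bp and ZNF787 329 bp. Just outside, a site near TMEM204 on chromosome 16 was overlapped by a single STAG1 list over 20 bp, and one near OSTM1 on chromosome 6 over 22 bp. Of the 358 stable sites held by exactly 1 STAG1 list, 183 were held by WT replicate 2 and 156 by STAG2-KD replicate 2, where the weakest peaks were kept. The lowest background estimated from the STAG1 and STAG2 lists had ratios of 0.988 to 1.00 within each pair, but this floor matched only 13.3% to 32.3% of the peaks examined and the read totals are unknown.

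STAG2 was higher in the knockdown at a subset of these sites. At 17 of the 161 sites the STAG2 fold enrichment was over 2 times higher in STAG2-KD than in WT in both replicates, against 0.496% of all stable sites. At none was it over 2 times lower in both, against 2.11%. Both counts are descriptions with no test, since the rule asked for a peak in all 4 lists and a weak site with a lower value could drop out of it. This comparison was added after the values of the strongest sites had been seen. No control precipitation and no second STAG2 antibody was analysed here, so whether the signal at these sites was specific to STAG2 was not tested. Of the 17 sites 16 were promoters. Among promoter sites the share was 15.7%, against 4.68% with STAG1 in 1 to 3 lists and 1.70% of all stable promoter sites. In the list of STAG2 peaks as a whole the direction was the opposite, with 79048 and 118984 peaks in WT and 58418 and 106135 in STAG2-KD of replicates 1 and 2. In the weakest stratum of STAG2 strength the share over 2 times higher was 4 of 142 sites (2.82%). It was 0.311% of the sites with STAG1 in all lists and 1.06% of those with STAG1 in 1 to 3.

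At CDK12, the kinase of RNA polymerase II elongation (chromosome 17, 37617151 to 37618513), STAG2 fold enrichment was 9.95 in WT and 52.7 in STAG2-KD of replicate 1, and 6.20 and 30.5 in replicate 2. SMC1A at CDK12 had no peak in WT and a fold enrichment of 10.4 in STAG2-KD of replicate 1, and 3.10 and 7.30 in replicate 2. Both STAG2-KD libraries thus stood above both WT libraries for STAG2, and SMC1A was higher in the knockdown in each replicate.

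ARF3, a GTPase of Golgi traffic (chromosome 12, 49350373 to 49351714), had STAG2 fold enrichments of 10.1 and 35.7 in replicate 1 and 5.94 and 17.6 in replicate 2, WT before STAG2-KD. ZNF317, a zinc finger protein (chromosome 19, 9250673 to 9251442), had 10.2 and 50.1, then 5.50 and 18.6. At both genes the STAG2-KD libraries were higher in both replicates. ARF3 also had CTCF and SMC1A in all 8 lists, whereas ZNF317 had no CTCF peak in any list.

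Of other sites among the 10 strongest, the one between genes near ADAM8, a membrane metalloproteinase (chromosome 10, 135074955 to 135076018), had 8.64 and 28.0 in replicate 1 and 7.12 and 19.6 in replicate 2. ZNF350 had 7.41 and 16.8, then 4.37 and 9.07. SPC25, a kinetochore protein, had 5.14 and 23.5, then 5.46 and 14.5. The promoter of RACGAP1, a protein of cytokinesis, had 6.66 and 19.4, then 3.77 and 7.85, and held neither SMC1A nor CTCF in any list. ZMYM3 had 8.32 and 12.47, then 5.75 and 10.1. All 5 were higher in STAG2-KD in both replicates, ZMYM3 by less than 2 times.

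Further sites above 2 times were the promoters of PTBP1, GMPPA, FASTKD2, ZNF175, ZNF345, SLC39A9, SPAG16 and CTU1. The median log2 ratio of STAG2-KD over WT was 1.83 and 1.51 at the 17 sites in replicates 1 and 2. At the other 144 sites it was 0.03 and -0.02, and they included sites that went the other way. RLF, in an intron on chromosome 1 with CTCF and SMC1A in all 8 lists, had 9.53 in WT and 4.42 in STAG2-KD of replicate 1, and 5.76 and 4.01 in replicate 2. The site between genes nearest to CITED4, 57.3 kb from its start, had 8.03 and 4.53, then 8.25 and 4.90. Both of these distal sites were lower in the knockdown in each replicate.

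CTCF and SMC1A did not all move with STAG2 at the 17 sites. Of the 13 that had an SMC1A peak in both conditions of replicate 2, 10 had a higher SMC1A fold enrichment in STAG2-KD, with a median log2 ratio of 0.26, close to the 0.25 at all stable sites with STAG1 in all lists. In replicate 1 only 3 had a peak in both conditions, and 1 of them was higher. For CTCF, 1 of 5 was higher in replicate 2 and 2 of 3 in replicate 1. For STAG2 itself, all stable sites with STAG1 in all lists had a median STAG2 log2 ratio of -0.44 and -0.16, and those of the weakest stratum -0.31 and -0.10.

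**Figure D3:**
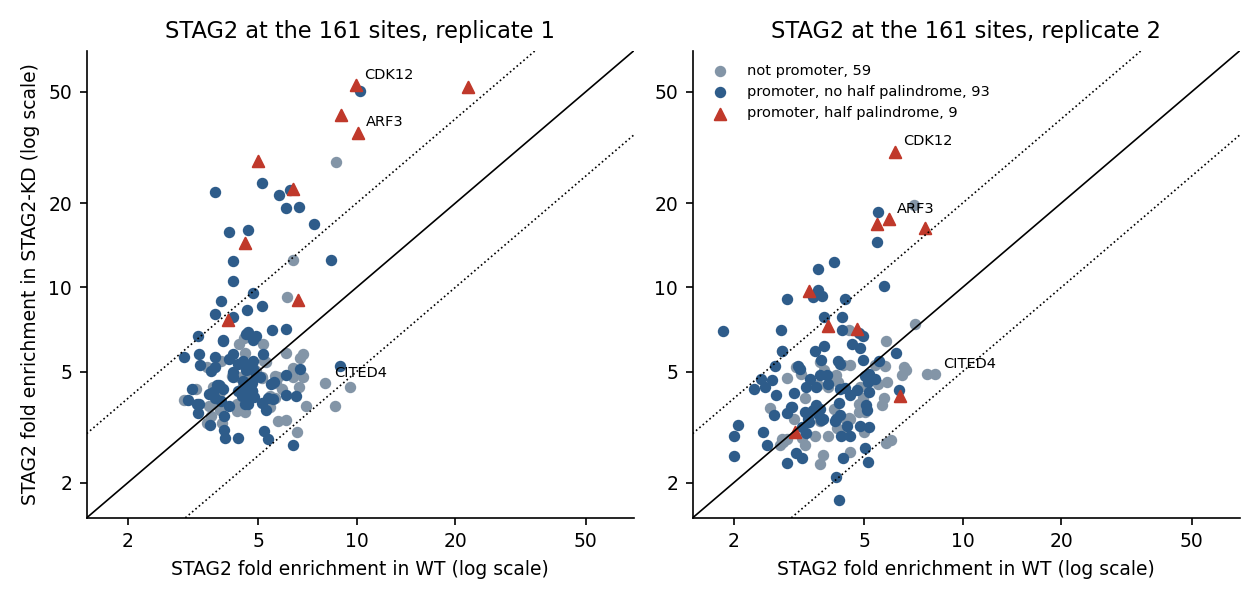
STAG2 fold enrichment in WT (x axis) and STAG2-KD (y axis) at the 161 sites in replicate 1 (left) and 2 (right), both on log scales. The solid line marks equal values and the dotted lines a 2-fold difference. CDK12 and ARF3 lie above the diagonal in both panels, CITED4 below it, and red triangles mark the 9 promoter sites with TCGCGAG.

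Over all 161 sites the net change of SMC1A and CTCF calls between WT and STAG2-KD was within a few percentage points. SMC1A was gained at 29 sites in replicate 1, against 5.11% of all stable sites, and lost at 19, against 2.29%. In replicate 2 it was gained at 18, against 1.11%, and lost at 11, against 0.638%. The mean share was 5.28 percentage points higher in STAG2-KD, 6.21 and 4.35 within replicates 1 and 2 (two-sided exact permutation test of 2 libraries against 2, p = 0.667, where the smallest possible is 0.33). This direction turned to -5.00 points with equal list lengths and -0.687 with replicate 2 alone. CTCF was gained at 6 sites and lost at 7 in replicate 1, against 1.68% and 1.35%, and gained at 9 and lost at 10 in replicate 2, against 0.738% and 1.19%. Its mean share was 0.621 points lower (exact permutation p = 0.667), which is 1 site in each replicate, and was 0 with an overlap of 50% of the shorter interval and 1.04 points higher with replicate 1 alone. In both replicates SMC1A was gained at 9 sites and lost at 1, against 0.3% and 0.15% of all stable sites, and CTCF was gained at 0 and lost at 2, against 0.11% and 0.186%. Calls changed in both directions, but the shares have unlike bases. SMC1A was already called in WT at 89.9% and 98.1% of all stable sites in replicates 1 and 2, against 49.7% and 81.4% of the 161. Fewer of the stable sites were therefore free to gain a call, so a higher share of gains is not a trait of the 161. For losses the bases run the other way. Of the sites with an SMC1A call in WT, 19 of 80 lost it in replicate 1 and 11 of 131 in replicate 2. Over all stable sites 1146 of 44968 and 319 of 49048 did, and the cause was not tested.

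Most of the sites were promoters. A summit within 1 kb of an annotated transcript start was found at 102 of 161 sites (63.4%, 95% Wilson interval 55.7% to 70.4%), against 21.2% of the stable sites with STAG1 in all lists and 47.6% of those with STAG1 in 1 to 3. A further 30 lay in introns, 23 between genes and 6 in exons. The median distance to the nearest protein-coding start was 217 bp, against 16.1 kb. Of the 102 promoter sites 36 (35.3%) had starts on both strands within 1 kb, against 20.3% of promoter sites with STAG1 in all lists and 32.6% of those with STAG1 in 1 to 3. These shares have no replicate and were not tested. They depend on replicate 1. The rule applied to replicate 2 alone kept 8001 sites with a promoter share 1.89 points below that of the sites with STAG1, whereas replicate 1 alone kept 1538 with a share 41.9 points above.

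**Figure D4:**
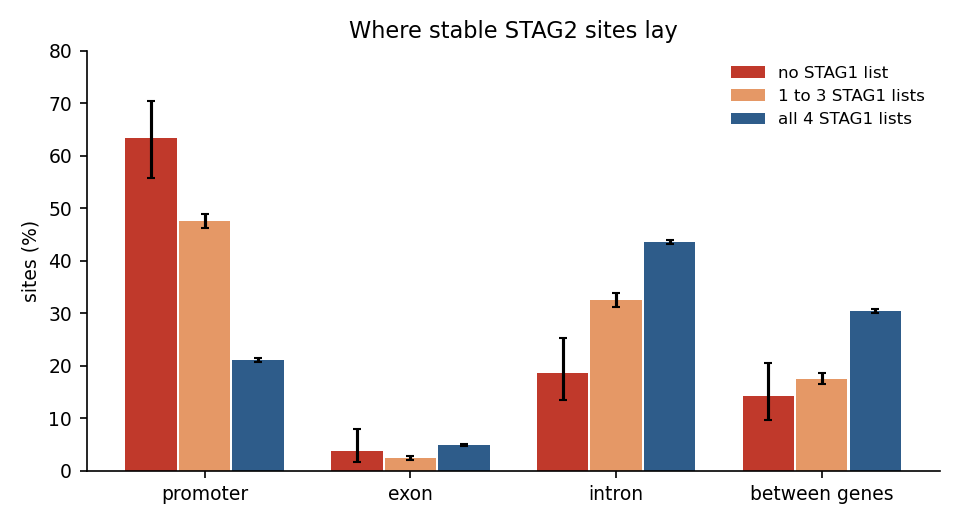
Percent of stable STAG2 sites whose summit lay at a promoter, in an exon, in an intron or between genes, for the 3 sets by number of STAG1 lists. Error bars are 95% Wilson intervals. The promoter bar is highest for the sites with no STAG1 list, at 63.4%.

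The summits seldom held the CTCF motif. The CTCF core motif was found within 100 bp of the summit at 2 of 161 sites (1.24%), RNF121 and PGS1, against 25.6% of the stable sites with STAG1 in all lists, 3.80% of those with STAG1 in 1 to 3 and 23.2% of all stable sites. At promoters alone the share was 1.96%, next to 2.02% with STAG1 in 1 to 3 lists, so a low share was not particular to the 161 sites. In windows 5 kb from the stable sites it was found in 0.718%, and in those 5 kb from the 161 sites in 3. The short form of the motif, AGNNGGCGC, was at 11 of the 161 sites (6.83%), against 11.5% of all stable sites. The median GC content of the windows was 58.7%, against 47.8%. This difference of 10.9 points was 4.48 with equal list lengths and -0.995 with replicate 2 alone. Among promoter sites alone GC was 63.7%, between 61.7% with STAG1 in all lists and 66.7% with STAG1 in 1 to 3.

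Of 19 motifs searched, 5 of promoter factors are given here, picked after their shares had been seen, beside both the stable promoter sites as a whole and those with STAG1 in 1 to 3 lists. The ETS motif CCGGAAG was present at 19 (18.6%), against 7.26% of all stable promoter sites and 11.9% of those with STAG1 in 1 to 3 lists. NRF1, with the letters GCGCNTGCG, was present at 17 (16.7%), against 4.52% and 6.42%, and YY1, with the letters AAGATGGC, at 12 (11.8%), against 2.68% and 4.32%. ZNF143 was present at 4 (3.92%), against 0.366% and 0.767%. TCGCGAG was present at 9 (8.82%, 95% Wilson interval 4.71% to 15.9%), against 2.83% and 5.49%, the latter inside the interval. Any of these 5 was found at 50 of 102 (49.0%), against 15.7% and 24.5%. The GC box GGGCGG, by comparison, was at 52.9% against 41.3% and 54.6%, the TFAP2 motif GCCNNNGGC at 19.6% against 22.9% and 28.3%, and the AP-1 motif TGANTCA was at 9.32% of all 161 sites against 9.16% of all stable sites. A match is a description of the letters and not a test of binding.

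**Figure D5:**
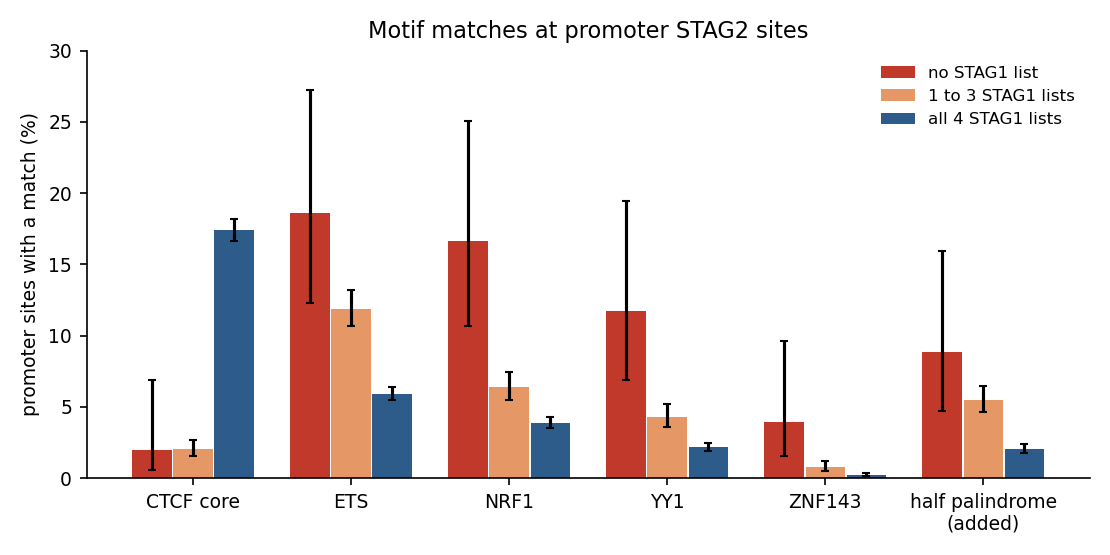
Percent of promoter STAG2 sites with a match to each of 6 motifs within 100 bp of the summit, by number of STAG1 lists, with 95% Wilson intervals. The CTCF core motif is at 1.96% of the promoter sites with no STAG1 list, 2.02% with 1 to 3 and 17.4% with all 4, while the other 5 motifs are highest where there is no STAG1 list.

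TCGCGAG was read off the strongest sites, so its counts among them are a description with no test. The ranking uses STAG2 values of both conditions, so sites raised in STAG2-KD stand higher in it. TCGCGAG was present at 4 of the 5 strongest of the 161 sites and at 8 of the 16 strongest, among them CDK12, ARF3, GMPPA, MMS22L and CDC5L, and at 1 of the other 145, NPM1. It was present at 5 of the 17 sites where STAG2 was over 2 times higher in STAG2-KD. Among all 376 stable sites with TCGCGAG, 18.4% were over 2 times higher, against 0.361% of the 49634 without it. Of the 376 sites 340 were promoters, and 68 of these 340 were over 2 times higher. Over all stable promoter sites the share was 1.70%, so part of the contrast goes with promoters. The motif and the 2-fold difference were both chosen after values had been seen.

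The sites with both CTCF and SMC1A in all 8 lists were led by ARF3, GMPPA, RLF, ZNF787 and CCNJ. RLF had the highest CTCF fold enrichments of these, 30.5 and 31.4 in replicate 1 and 26.4 and 30.4 in replicate 2. GMPPA, of GDP-mannose metabolism, had STAG2 fold enrichments of 5.00 and 28.2, then 3.40 and 9.68. High CTCF values thus occurred at sites without a STAG1 peak. At ZMYM3 CTCF reached 45.8 and 51.0 in replicate 2 with no CTCF peak in replicate 1. A STAG1 peak lay 122 bp from that site, and an overlap of 1 bp was enough for a CTCF call. Whether this CTCF peak belonged with the neighbouring STAG1 peak was not tested.

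The sites with SMC1A in all 4 lists and no CTCF included ZNF350, CITED4, LINC02940 and PLXNA2. At the CITED4 site, which lies near the gene of a transcriptional co-activator, SMC1A fold enrichment was 12.49 and 9.59 in replicate 1 and 9.26 and 5.99 in replicate 2. That site had the highest SMC1A value of all 161 in both WT lists. In the intron of PLXNA2, a semaphorin receptor, SMC1A was 3.55 and 5.94, then 3.47 and 3.73.

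The 1 site with CTCF in all 4 lists and no SMC1A lay in an intron of GYS1, the muscle glycogen synthase, and held the ZNF143 motif. Its CTCF fold enrichments were 6.99 and 5.28, then 6.50 and 2.64. The 6 sites with neither protein were RACGAP1, an intron of NEK10, an intron of CD5L, a site near KRTAP19-1, the promoter of DLG4 and an intron of EXOC2. NEK10 had STAG2 fold enrichments of 6.13 and 9.27, then 4.84 and 3.60, and DLG4 had 5.07 and 4.80, then 2.47 and 3.04. Apart from RACGAP1, none of these was over 2 times higher in STAG2-KD.

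The sites were scattered. Only 2 pairs of close neighbours were found, 1 at BICRAL, of a chromatin remodelling complex, on chromosome 6 (42749431 to 42751707) and 1 at the zinc finger genes ZNF790 and ZNF345 on chromosome 19 (37328922 to 37342040). BICRAL and ITPK1 were the only protein-coding genes whose span held 2 of the sites. Chromosome 19 held 17 of the 161 (10.6%), against 3.37% of all stable sites. Among the 95 sites at protein-coding promoters 9 belonged to zinc finger genes by their names (9.47%, 95% Wilson interval 5.06% to 17.0%). The share was 2.75% of such stable sites and 4.14% of those with STAG1 in 1 to 3 lists. The group was chosen after the names had been seen, and 7 of the 9 lay on chromosome 19.

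Genes of the melanoma programme were not among them. Within 10 kb of 19 melanocyte lineage genes there were 58 stable STAG2 sites and none of the 161, and within 10 kb of 20 genes of the dedifferentiated melanoma state there were 80 and none. The 21 interferon signalling genes had 54 and none, and 19 liver secretory genes, a list for a different lineage, had 26 and none. The AP-1 family had 1 of 26, in an intron of HOOK2 next to JUNB, and the genes of cohesin and its regulators 1 of 44, at ESCO2, which acetylates cohesin. With 0.322% of stable sites meeting the rule, none or 1 in lists of this size is near the background.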

How the data were processed

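The lists hold MACS2 peaks of 16 ChIP-seq libraries on hg19, and input libraries were not analysed here. Per the labels, replicate 1 was aligned with Bowtie2, and for replicate 2 the labels name BWA where the study's methods name bowtie2. The authors deposited for each peak a score, a fold enrichment (a linear ratio), a −log10 p-value and a −log10 q-value. Replicate 1 was thresholded at a −log10 q-value of 2 and replicate 2 at a −log10 p-value of 2, so replicate 2 keeps weaker peaks. The lists held 58418 to 150282 peaks on chromosomes 1 to 22 and X, and 0.145% to 4.76% of rows lay elsewhere and were left out. Read totals are unknown, and only the ratio of background floors between libraries was read from the lists.

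Sites were merged and shared when they overlapped by 1 bp. Shares were compared over libraries by exact permutation in Python 3.11.15 with scipy 1.17.1, and 44 such p-values were adjusted by Benjamini-Hochberg. Genes came from GENCODE 44 on GRCh37. Motifs were searched on both strands in 201 bp windows, and the CTCF core motif is the degenerate core. The tests were checked on simulated data. Named sites were the 10 with the highest mean STAG2 percentile, up to 5 of each CTCF and SMC1A class, close pairs, genes of fixed lists and sites nearest the threshold, and a few of these are not reported here. The sites and lists were chosen with earlier results of these data known. The TCGCGAG motif, the 2-fold STAG2 difference and the zinc finger group were added after values had been seen. Same-numbered libraries share chromatin extraction and size selection, which makes the replicate number a batch. Other overlap, threshold, list length, stratum and replicate settings are given in the closing section.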

Additional observations from a re-analysis of the deposited data

How the results depend on the processing

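The lower CTCF and SMC1A shares at the 161 sites kept their direction under all 9 alternatives tried, with differences of -75.8 to -53.4 and -47.7 to -18.2 percentage points. The number of sites moved to 279 with a common −log10 q-value of 2, to 45 with a STAG2 threshold of 5 and to 70 with equal list lengths. Leaving out a replicate gave 1538 to 8001 sites. It moved the promoter difference to -1.89 to 41.9 points, the CTCF motif difference to -24.4 to -16.3, the GC difference to -0.995 to 12.2, the CTCF change with knockdown to -3.70 to 1.04 and the SMC1A change to -0.687 to 4.42, with the lowest promoter, GC and SMC1A values from replicate 2 alone. Equal list lengths gave 31.8 points for promoters, 4.48 for GC and -5.00 for the SMC1A change. The CTCF change was 0 with an overlap of 50% of the shorter interval. The CTCF motif difference was -26.7 with the stricter STAG2 threshold, -12.8 within strata of STAG2 strength, -5.22 with the short form AGNNGGCGC and -15.4 at promoter sites only, a setting added after seeing the data, where GC differed by 1.99. The causes were not tested. Taking the replicate number as a block left the changes with knockdown at 5.28 points for SMC1A and -0.621 for CTCF (exact sign-flip permutation p = 0.5 each, the smallest for 2 pairs). The peak lists give no read totals, so a STAG1 peak under the threshold cannot be seen, and intervals cover counting error only.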
